A study of Mus musculus with 5 samples.

Results

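The genes examined were 10 members of the Sox family, Sox1, Sox2, Sox7, Sox8, Sox9, Sox10, Sox11, Sox14, Sox17 and Sox21, which are best known from lineages other than the dermal fibroblast. They were chosen by name out of 55536 annotated genes, 22028 of them protein-coding. No threshold was set on their values, but earlier results of these data were known when they were chosen. H3K27me3 ChIP-seq peaks were read at each gene in 4 libraries of cultured wild-type (WT) mouse dermal fibroblasts from a C57BL/6 background, 2 from embryonic day 14 (E14) and 2 from embryonic day 17 (E17). These are the stages in the sample labels, whereas the study's methods give E14.5 and E18.5. The fibroblasts of both stages were wild type, had no treatment named in the labels and were expanded in culture before the assay, so the chromatin is that of cultured cells and not of cells taken directly from skin. How many embryos went into each culture is not given in the sources used here. The question was where these lineage genes carry the mark in fibroblasts, how wide the marked domains are, and whether they hold at the later stage.

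Sox proteins are transcription factors that bind DNA through an HMG box, and different members direct the choice of neural, neural crest, endodermal, endothelial and skeletal fates. H3K27me3 is laid down by the Polycomb repressive complex PRC2 and is associated with genes held silent. In differentiated cells it often forms wide domains over transcription factor genes of other lineages, many of them rich in the dinucleotide CpG. In ChIP-seq, a peak is a stretch where fragments recovered with the antibody pile up above the local background.

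A gene was called marked when a peak touched the 3000 bp on either side of any of its start sites. Covered length is the number of bases of those windows inside peaks. Domain width is the summed width of the peaks that touch the windows, which may reach far beyond them. The level of a peak was read only as its percentile by fold enrichment within its own list, where 100 is the strongest peak. The lists held 21546 and 16574 peaks over 52.8 and 32.1 Mb at E14, and 10429 and 7107 peaks over 20.0 and 14.3 Mb at E17, always in the order replicate 1 and replicate 2. The E17 lists were therefore shorter over the whole genome, and each change at a Sox gene is set beside the same change over all protein-coding genes. Library depth could not be read here, because read counts are not part of the lists. With 2 libraries per stage, the exact two-sided permutation test has 3 splits and cannot give a p-value below 0.333. Nothing in the labels says that the replicates came from separate embryos. The p-values therefore describe only how the values of these 4 libraries fall between the stages, and measure no spread between embryos. A domain that is narrower in every cell cannot be told apart from one that is lost in a part of the cells.

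The label of the cells was compared with marker genes. None of 10 dermal fibroblast markers, among them Pdgfra, Col1a1 and Twist2, carried a peak in any library. Keratinocyte markers carried a peak at 1 of 4 genes (Cdh1) and endothelial markers at 1 of 4 (Kdr) in every library. Neuronal markers were marked at 4 and 3 of 4 genes at E14 and at 2 of 4 in both E17 libraries, and no melanocyte marker of 4 was marked. Most protein-coding genes carried no peak, as 5343, 4532, 3328 and 2816 of 22028 were marked. The absence of peaks at the fibroblast markers could thus hardly have gone against the label. It does not tell fibroblasts from other cells, and a repressive mark does not measure expression.

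Sequences at 4 of the genes frame the results. The promoters are those of RefSeq on GRCm38.p6, from 250 bases before to 50 bases after the RefSeq start. The first 3 are shown because they differed in the mark: the Sox21 promoter (chr14:118236981-118237280, minus strand) lay wholly inside a peak in every library, the Sox8 promoter (chr17:25570637-25570936, minus strand) in a single library, and the Sox11 promoter (chr12:27342669-27342968, minus strand) in none. The next is the Sox1 promoter (chr8:12395269-12395568, plus strand), which held the most CpG dinucleotides of the promoters matched. The last is the middle 300 bases of a stretch of the Sox1 coding sequence that stayed outside the peaks in every library (chr8:12396936-12397235, plus strand). Capitals mark each CpG, and all run 5′ to 3′ in the direction of transcription.
Sox21 promoter: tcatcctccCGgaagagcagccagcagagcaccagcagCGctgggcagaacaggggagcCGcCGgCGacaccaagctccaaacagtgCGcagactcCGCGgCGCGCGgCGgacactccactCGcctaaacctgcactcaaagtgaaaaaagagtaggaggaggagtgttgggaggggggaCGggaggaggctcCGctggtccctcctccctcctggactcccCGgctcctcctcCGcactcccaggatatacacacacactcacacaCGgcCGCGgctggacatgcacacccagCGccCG
Sox8 promoter: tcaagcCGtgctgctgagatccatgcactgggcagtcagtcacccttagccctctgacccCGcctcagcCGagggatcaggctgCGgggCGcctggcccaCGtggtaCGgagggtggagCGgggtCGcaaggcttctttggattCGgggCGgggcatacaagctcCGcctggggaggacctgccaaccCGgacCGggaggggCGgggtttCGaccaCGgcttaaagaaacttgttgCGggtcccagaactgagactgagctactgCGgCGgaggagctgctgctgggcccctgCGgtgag
Sox11 promoter: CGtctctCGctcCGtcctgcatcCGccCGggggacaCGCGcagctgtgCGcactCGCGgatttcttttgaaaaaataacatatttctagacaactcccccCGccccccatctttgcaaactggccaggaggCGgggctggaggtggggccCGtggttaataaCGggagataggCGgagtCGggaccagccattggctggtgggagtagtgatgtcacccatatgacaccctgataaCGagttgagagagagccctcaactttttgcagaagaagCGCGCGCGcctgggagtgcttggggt
Sox1 promoter: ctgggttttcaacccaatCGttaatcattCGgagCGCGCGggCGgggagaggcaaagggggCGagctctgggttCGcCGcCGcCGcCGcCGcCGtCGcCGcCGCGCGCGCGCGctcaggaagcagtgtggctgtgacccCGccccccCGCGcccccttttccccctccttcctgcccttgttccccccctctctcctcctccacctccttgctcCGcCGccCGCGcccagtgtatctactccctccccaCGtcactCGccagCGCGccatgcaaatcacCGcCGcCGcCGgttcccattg
Sox1 uncovered coding stretch: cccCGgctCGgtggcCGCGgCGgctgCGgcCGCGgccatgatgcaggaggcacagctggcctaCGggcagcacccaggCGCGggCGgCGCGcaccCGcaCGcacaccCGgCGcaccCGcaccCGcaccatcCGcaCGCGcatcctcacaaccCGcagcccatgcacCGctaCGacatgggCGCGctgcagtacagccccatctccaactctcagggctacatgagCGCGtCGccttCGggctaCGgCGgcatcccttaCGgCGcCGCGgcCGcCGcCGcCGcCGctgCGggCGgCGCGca

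Promoter sequences were matched for 6 of the 10 genes. The number of CpG in the 300 bases was 37 at Sox1, 27 at Sox2, 26 at Sox14, 22 at Sox21, and 21 at both Sox8 and Sox11. The median over 32851 RefSeq promoters was 7. At least 37 CpG were held by 5.58% of all promoters, at least 27 by 15.5%, at least 26 by 16.9%, at least 22 by 23.1% and at least 21 by 24.8%. All 6 promoters were thus well above the median in CpG, including the Sox11 promoter that no peak covered. Peaks covered all 300 bases of the Sox1, Sox2, Sox14 and Sox21 promoters in all 4 libraries. At Sox8 the promoter was covered in full in E14 replicate 1 and at 0 bases in the other 3 libraries.

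Of the 10 Sox genes, 8 were marked in every library, beside 12.0% of protein-coding genes (2645 of 22028). The exceptions were Sox9, with no peak in E17 replicate 2, and Sox11, with a peak only in E17 replicate 2. Each library therefore marked 9 of the 10 genes, while the number of marked protein-coding genes went from 5343 and 4532 at E14 to 3328 and 2816 at E17. Among protein-coding genes marked in both E14 libraries, 38.1% (1625 of 4270) had no peak in at least 1 E17 library. Among the 9 Sox genes marked in both E14 libraries, Sox9 alone did so.

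The Sox domains were wide. Over the 9 marked genes of each library, the median domain width was 16579 and 14850 bp at E14 and 11297 and 11667 bp at E17, whereas the median over marked protein-coding genes was 3646, 2917, 2533.5 and 2311.5 bp in the same order of libraries. A single peak of at least 10 kb was present at 6 Sox genes in each E14 library, at 4 in E17 replicate 1 and at 5 in E17 replicate 2. Such peaks made up 3.22, 2.20, 2.13 and 2.53% of all peaks in the lists, a share of peaks and not of genes. The share of marked protein-coding genes with such a peak was not counted. The peaks also ranked high, with a median fold enrichment percentile over the marked Sox genes of 99.3, 98.2, 98.0 and 96.8, where marked protein-coding genes had medians of 83.7, 82.1, 78.6 and 72.9.

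**Figure D1:**
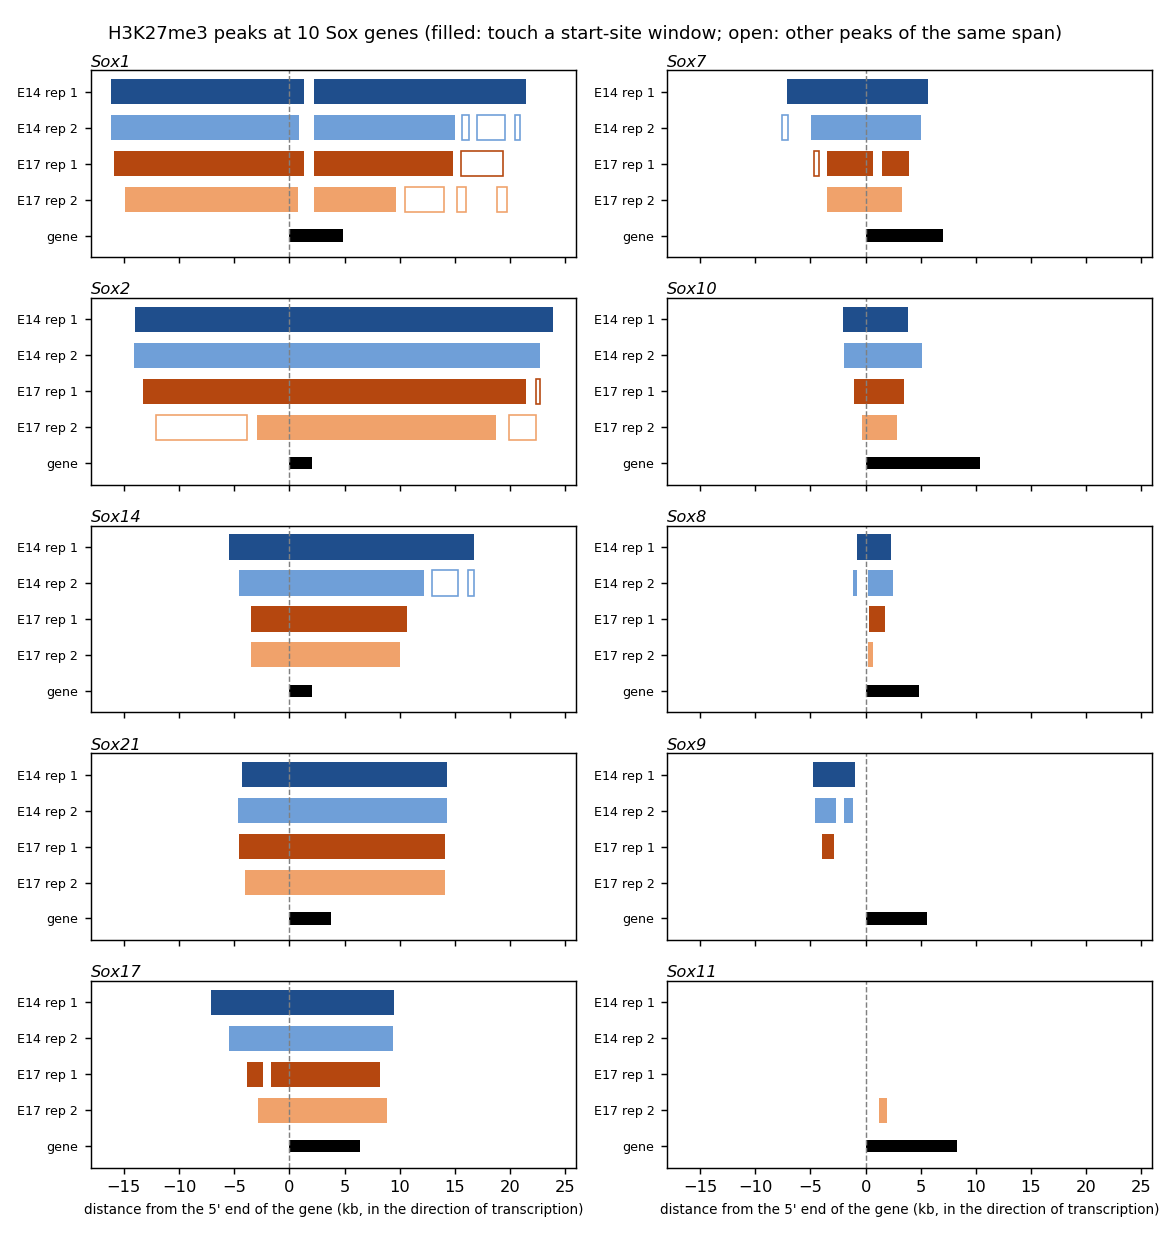
Peaks at the 10 Sox genes, drawn to scale, with the distance from the 5′ end of each gene in kb in the direction of transcription on the horizontal axis and 1 bar row per library. Filled bars touch a start-site window, open bars are other peaks within the same span, and the black bar is the gene. Sox21 kept nearly the same edges in all 4 libraries, Sox2 was split into 3 peaks in E17 replicate 2, Sox1 showed the same central gap in each, and the Sox9 peaks lay wholly upstream of the gene.

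The genes of the B1 subfamily, Sox1 and Sox2, are known from neural progenitors, and Sox2 also from pluripotent cells and from the dermal papilla of the hair follicle. Both carried domains that reached far beyond the gene itself. At Sox2 (ENSMUSG00000074637.7, chr3:34650405-34652461, plus strand) the domain width was 37939 bp in E14 replicate 1, 36810 bp in E14 replicate 2, 34766 bp in E17 replicate 1 and 21668 bp in E17 replicate 2. A single peak touched the start-site window in each library, and by width this peak ranked 42, 15, 9 and 37 of its list. The means were 37375 ± 798 bp at E14 and 28217 ± 9262 bp at E17 (SD, n = 2 each), a difference of -24.5%, and the E17 values lay below both E14 values (exact permutation test, two-sided, p = 0.333). Most of the difference came from a split of the domain in E17 replicate 2, as it was -9157.5 bp with all libraries and -2608.5 bp without that one. There the peak over the gene reached 2950 bp upstream, where it reached 13999, 14063 and 13278 bp in the other libraries, and it ended 18717 bp after the 5′ end, where the others ended 23939, 22746 and 21487 bp after it. Peaks of 8310 and 2496 bp lay beyond gaps of 870 and 1148 bp on its upstream and downstream sides. When every peak within the outermost span of the domain was counted, a measure added after the values were seen, the Sox2 domain held 37939, 36810, 35101 and 32474 bp, a difference of -9.60% between the means.

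Around the start of Sox2 there was almost no change, with 6001 of 6001 window bases covered in 3 libraries and 5951 in E17 replicate 2. The Sox2 coding sequence was wholly covered in each library. The Sox2 peak had a percentile of 99.7, 99.0, 98.0 and 98.5, and rank 69, 168, 209 and 110 by fold enrichment. The starts of Mir1897, a microRNA gene, of the small RNA gene RF01953 and of Gm42692 lay inside this peak in 3 libraries and inside the split-off upstream peak in E17 replicate 2. The starts of Gm27611, Gm42693 and of a transcript of Sox2ot, the long noncoding RNA gene within which Sox2 lies, were inside it in all 4.

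At Sox1 (ENSMUSG00000096014.1, chr8:12395295-12400126, plus strand) the domain width was 36674 and 29861 bp at E14 and 29767 and 23166 bp at E17. The E17 values lay below both E14 values, though E17 replicate 1 came within the spread of the replicates of E14 replicate 2. The means were 33268 ± 4818 and 26467 ± 4668 bp (SD, n = 2 each, a difference of -20.4%, exact permutation test, two-sided, p = 0.333). The difference of -6801 bp became -3394.5 bp without E14 replicate 1, -3500.5 bp without E17 replicate 2 and -792 bp with windows of 1000 bp. With all peaks of the outermost span counted, Sox1 held 36674, 33433, 33632 and 28504 bp and the stages overlapped, so its narrowing was within the spread between replicates. Covered length was 5067, 4638, 5111 and 4560 bp of 6001, so that the stages overlapped near the start. By fold enrichment the strongest Sox1 peak ranked 35, 88, 25 and 70, a percentile between 99.0 and 99.8. Of the 10 genes, Sox1 also had the most peaks within 100 kb, its own included. There were 24, 21, 13 and 15, covering 80406, 65101, 53685 and 42268 bp. The starts of Sox1ot and Gm45560 lay inside its peaks in each library, and that of the microRNA gene Gm25239 in E14 replicate 1 and E17 replicate 1.

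Each list split the Sox1 domain at the same place over the gene. The gap was 934, 1363, 890 and 1441 bp, and 842 bp of it, from 1370 to 2211 bp after the start (chr8:12396665-12397506), lay outside the peaks of all 4 libraries. The right edge of the gap fell within 56 bp in the 4 libraries, and the left edge within 550 bp. Sox1 has a single exon, and all 842 bases were coding. Peaks covered 22.8 and 2.30% of the Sox1 coding sequence at E14, and 25.9 and 0% at E17. The gap had a GC content of 74.9% and 14.8 CpG per 100 bases, with a CpG observed/expected ratio of 1.06, where 1 is the number its base composition gives. The middle stretch printed above held 47 CpG in 300 bases. Over the whole coding sequence, GC content was 73.7% at Sox1 and 71.9% at Sox21, with a CpG ratio of 1.03 at both. The Sox21 coding sequence, with 13.3 CpG per 100 bases, was covered over 100% of its bases in every library. The Sox1 gap alone was higher than it in GC content (74.9%) and in CpG (14.8 per 100 bases). The part that base composition may have in the recovery of these fragments was not tested.

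The B2 genes, Sox14 and Sox21, are known from neurons of the developing brain and spinal cord, and Sox21 also from hair shaft keratinocytes. Sox21 (ENSMUSG00000061517.8, chr14:118233232-118237030, minus strand) had the steadiest domain of the 9 genes marked at E14. Its width was 18542 and 18985 bp at E14 and 18699 and 18082 bp at E17, and the stages overlapped. The means were 18764 ± 313 and 18391 ± 436 bp (SD, n = 2 each, a difference of -1.99%, exact permutation test, two-sided, p = 0.667). Both ends held their place. The domain began 4273, 4690, 4598 and 4004 bp upstream of the start and ended 14268, 14294, 14100 and 14077 bp downstream. Within 100 kb, counting the domain itself, there were 9 and 6 peaks at E14 and 4 and 3 at E17. The whole lists also fell, from 21546 and 16574 peaks to 10429 and 7107. With peaks less than 3000 bp apart joined, which added neighbouring peaks, the difference of -373 bp between the means became -6363.5 bp. The start of Gm4675, a long noncoding RNA gene on the other strand, lay inside the domain in each library.

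At Sox14 (ENSMUSG00000053747.9, chr9:99874106-99876170, minus strand) the width was 22223 and 16748 bp at E14 and 14213 and 13527 bp at E17, and the stages did not overlap (exact permutation test, two-sided, p = 0.333, a difference of -28.8% between the means). The difference of -5615.5 bp became -2878 bp without E14 replicate 1. With all peaks of the outermost span counted it was -33.7%. The start-site windows, 6516 bp in all, were covered in full in every library. Sox14 held some of the strongest peaks in the lists, with rank 34, 24, 41 and 123 and a percentile of 99.8, 99.9, 99.6 and 98.3. Sox21 had rank 29, 139, 191 and 154, with a percentile of 99.9, 99.2, 98.2 and 97.8. At both genes the window was thus full at each stage, and Sox14 differed from Sox21 in that its outer parts lay outside the E17 peaks.

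**Figure D2:**
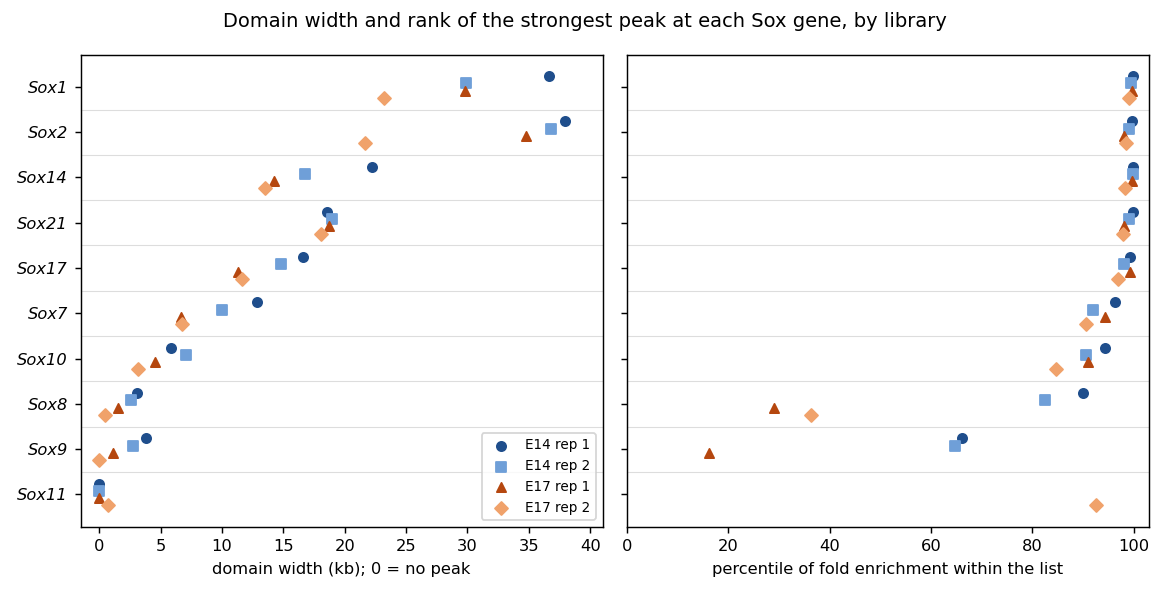
Domain width in kb (left, 0 where no peak was called) and the fold enrichment percentile of the strongest peak within its list (right) at each Sox gene, with 1 symbol per library and no point on the right where there was no peak. The B1 and B2 genes and Sox17 sit at or above a percentile of 96.8 in every library, while Sox8 falls from 90.1 and 82.4 at E14 to 29.0 and 36.4 at E17.

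The F genes, Sox7 and Sox17, act in endothelial cells, and Sox17 is a determinant of definitive endoderm. At Sox17 (ENSMUSG00000025902.13, chr1:4490931-4497354, minus strand) the domain width was 16579 and 14850 bp at E14 and 11297 and 11667 bp at E17. The E17 values were lower than both E14 values, with means of 15715 ± 1223 and 11482 ± 262 bp (SD, n = 2 each, a difference of -26.9%, exact permutation test, two-sided, p = 0.333). In E17 replicate 1 the domain was split into a peak of 9867 bp and one of 1430 bp. Covered length was 9751, 9751, 9045 and 9575 bp of 9751, the coding sequence was covered in full in each library, and the percentile was 99.3, 98.2, 99.3 and 96.8. The mark over the Sox17 gene was therefore nearly complete at both stages, and the narrowing lay at the edges. The start of Gm37587 lay inside the domain in all 4 libraries.

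Sox7 (ENSMUSG00000063060.6, chr14:63943673-63950732, plus strand) narrowed more. Its width was 12828 and 10018 bp at E14 and 6703 and 6754 bp at E17, with means of 11423 ± 1987 and 6729 ± 36.1 bp (SD, n = 2 each, a difference of -41.1%, exact permutation test, two-sided, p = 0.333). The upstream reach went from 7154 and 4990 bp to 3480 and 3495 bp. E17 replicate 1 had 2 peaks, of 4189 and 2514 bp. The coding sequence, which lies in 2 exons, was covered over 100% at E14 and 20.9% in both E17 libraries. The domains ended 5673 and 5027 bp after the start at E14 and 3973 and 3258 bp after it at E17, inside the gene in each library. Within 100 kb of Sox7, its own peaks included, there were 19 and 9 peaks at E14 and 4 and 3 at E17. The whole lists shortened too. With neighbouring peaks less than 3000 bp apart joined, the difference of -4694.5 bp became -7753 bp. The percentile of 96.4, 92.0, 94.3 and 90.7 overlapped between the stages.

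The E genes, Sox8, Sox9 and Sox10, act in the neural crest and its derivatives, Sox10 in Schwann cells and melanocytes, and Sox9 in cartilage and the hair follicle. They had the narrowest domains of the genes marked at E14, and the smallest shares of these domains were still inside the peaks of both E17 libraries. At Sox10 (ENSMUSG00000033006.10, chr15:79154908-79165240, minus strand) the width was 5888 and 7056 bp at E14 and 4558 and 3129 bp at E17. The means were 6472 ± 826 and 3844 ± 1010 bp (SD, n = 2 each, a difference of -40.6%, exact permutation test, two-sided, p = 0.333). Covered length did not overlap either, at 5799, 5699, 4558 and 3129 bp of 6767. The percentile was 94.4, 90.6, 91.1 and 84.8, so the Sox10 peak remained in the upper part of each list. Around Sox10 there were 16 and 10 peaks within 100 kb at E14 and 4 and 3 at E17, its own peak included. Here too the whole lists shortened. Joining peaks less than 3000 bp apart changed the difference in width from -2628.5 to -6446.5 bp. The start of Gm10863 lay inside the peak in all libraries but E17 replicate 2.

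At Sox8 (ENSMUSG00000024176.10, chr17:25565892-25570686, minus strand) a peak was present in each library, but the domain was small, with a width of 3066 and 2575 bp at E14 and 1502 and 464 bp at E17. All of it lay inside the windows, so covered length had the same values. The means were 2821 ± 347 and 983 ± 734 bp (SD, n = 2 each, a difference of -65.1%, exact permutation test, two-sided, p = 0.333). Only in E14 replicate 1 did the peak contain the 5′ end of the gene. In E14 replicate 2 the promoter lay in a gap of 987 bp between peaks of 2206 and 369 bp, and in the E17 libraries the peak began 285 and 230 bp inside the gene. Its rank by fold enrichment was 2143 and 2915 at E14 and 7403 and 4522 at E17, a percentile of 90.1 and 82.4 against 29.0 and 36.4. In lists shortened to equal covered length, no E14 peak was left at Sox8, and the difference in width of 232 bp in the opposite direction rests on the 464 bp peak of E17 replicate 2 alone. The start of an antisense gene, 2810468N07Rik, lay inside the Sox8 peaks in every library, and a peak of a histone mark has no strand, so the mark cannot be assigned to either gene.

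No peak touched the body of Sox9 (ENSMUSG00000000567.5, chr11:112782224-112787760, plus strand) in any library. The Sox9 peaks lay upstream, with the nearest edge 989 bp before the start in E14 replicate 1, 1109 bp in E14 replicate 2 and 2825 bp in E17 replicate 1. They overlapped no exon of Sox9. Domain width was 3812, 2754, 1089 and 0 bp, covered length was 2012, 1151, 176 and 0 bp of 6001, and the percentile was 66.0, 64.7 and 16.1 in the 3 libraries with a peak. The gene thus had the lowest ranking peaks of the 9 genes marked at E14. The width differed by -83.4% between the means (3283 ± 748 and 545 ± 770 bp, SD, n = 2 each, exact permutation test, two-sided, p = 0.333). With a −log10 q-value of at least 5, no peak was left near Sox9 in any library. Within 100 kb of Sox9, its own peaks included, there were 6, 6, 2 and 0 peaks, over 12660, 6897, 1310 and 0 bp. The whole lists were shorter at E17 as well.

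Sox11, the C subfamily gene in the set and a regulator of immature neurons and mesenchyme, was unmarked in both E14 libraries and in E17 replicate 1. In E17 replicate 2 a peak of 697 bp lay between 1257 and 1953 bp after the start of the gene (ENSMUSG00000063632.6, chr12:27334264-27342574, minus strand). The peak (chr12:27340621-27341317) was wholly within the single exon and 94 of its bases were coding. It ranked 526 of 7107 by fold enrichment, a percentile of 92.6. A peak in 1 of 2 libraries of a stage is within the spread between replicates, and the absence of a peak does not exclude signal just under the threshold.

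Set beside the genome, the direction of change at the Sox genes was the common one, and the median change was smaller. Marked protein-coding genes had narrower domains at E14, with median widths of 3646 and 2917 bp. At the marked Sox genes these medians were 16579 and 14850 bp. Whether the change at the Sox genes differs from that at genes of like E14 width was not tested. Domain width was smaller in both E17 libraries than in both E14 libraries at 8 of the 10 genes, the exceptions being Sox11 and Sox21, although at Sox1 the stages overlapped once the split-off peaks were counted. The same was true of 66.8% of protein-coding genes with a peak in any library (3790 of 5675), so the share is near the background. The median change of width over the 9 genes marked in both E14 libraries was -28.8%, with a range from -83.4% at Sox9 to -1.99% at Sox21, and the median over all 4270 protein-coding genes marked in both E14 libraries was -63.6%. With every peak of the outermost spans counted, the median over the Sox genes was -33.7%. Over genes with a peak in all 4 libraries the medians were -27.9% for the 8 Sox genes and -45.6% for the 2645 protein-coding genes. Covered length was shorter in both E17 libraries at 4 genes, Sox8, Sox9, Sox10 and Sox17, beside 63.3% of protein-coding genes (3594 of 5675). Its median change was -4.52% over the 9 Sox genes, -1.80% without E17 replicate 1 and -7.24% without E17 replicate 2, and -58.2% over the protein-coding genes marked in both E14 libraries. Windows that are full at both stages, as at Sox14 and Sox21, hold this measure at 0, and wide domains can lose their edges without losing covered length.

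The percentile by fold enrichment was lower in both E17 libraries at 4 of the 8 genes with a peak in all libraries, Sox2, Sox8, Sox14 and Sox21, beside 73.4% of protein-coding genes (1941 of 2645). Its median change was -1.31 points over the Sox genes, -0.837 without E14 replicate 1, and -11.5 points over the protein-coding genes. These changes start from unlike levels. Median percentiles at E14 were 99.3 and 98.2 at the marked Sox genes, near the top of the scale, and 83.7 and 82.1 at marked protein-coding genes. Genes of like starting percentile were not compared. A percentile depends on how many weak peaks a list holds. When each list was reduced to the 7107 peaks of the shortest, the median change over the Sox genes was 0.197 points, the opposite direction. The same reduction was not made for the protein-coding genes.

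**Figure D3:**
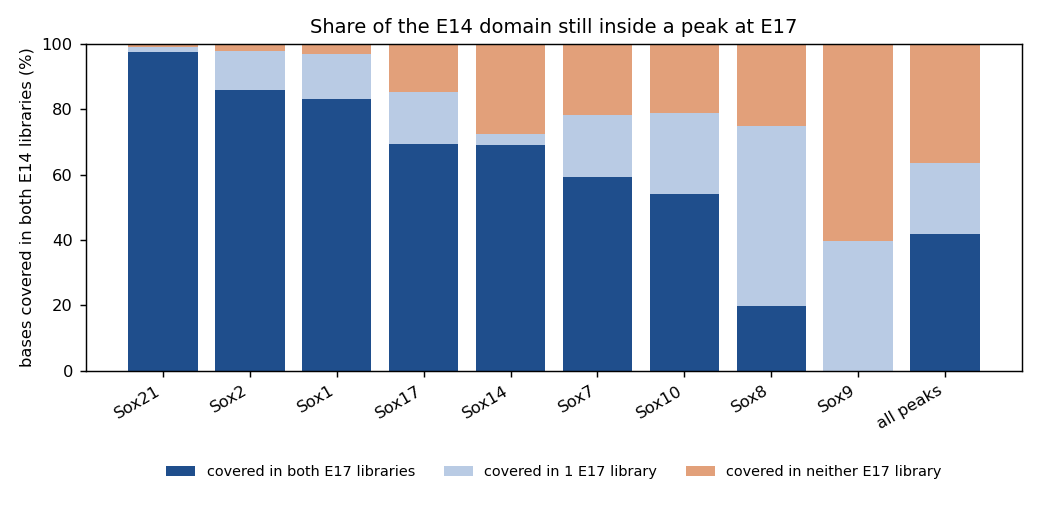
Of the bases covered in both E14 libraries at each Sox gene, the percentage covered in both, in 1 or in neither of the E17 libraries, with all peaks of the genome on the right. Sox21 kept 97.5% in both E17 libraries and Sox9 0%, beside 41.9% for all peaks.

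The bases covered in both E14 libraries were followed to E17. Of these bases, the share covered in both E17 libraries was 97.5% at Sox21, 86.0% at Sox2, 83.1% at Sox1, 69.4% at Sox17, 69.0% at Sox14, 59.3% at Sox7, 54.1% at Sox10, 19.7% at Sox8 and 0% at Sox9. Over the whole genome it was 41.9% of 28198995 bases. All 6 B and F genes and Sox10 were above the genome value, and Sox8 and Sox9 were below it. The share outside the peaks of both E17 libraries was 60.5% at Sox9, 27.5% at Sox14, 25.2% at Sox8, 21.8% at Sox7, 21.3% at Sox10 and 14.8% at Sox17. It was 2.94% at Sox1, 2.14% at Sox2 and 0.906% at Sox21, against 36.5% for the genome. These shares describe single loci with 2 libraries a stage, carry no test and were not compared with domains of like width.

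Within the domains, the stretches that kept the mark and those that lost it differed in CpG content. The CpG observed/expected ratio of the bases covered in all 4 libraries was 0.457 at Sox1, 0.513 at Sox2, 0.528 at Sox14, 0.535 at Sox21, 0.539 at Sox17, 0.463 at Sox7, 0.434 at Sox10 and 0.665 at Sox8. In the bases covered in both E14 and neither E17 library it was 0.161 at Sox1, 0.121 at Sox2, 0.230 at Sox14, 0.117 at Sox17, 0.226 at Sox7, 0.135 at Sox10 and 0.336 at Sox8. At Sox21 it was 0.272, over no more than 168 bases. The kept stretch had the higher ratio at 8 of 8 genes. The same direction held for all peaks of the genome, with 0.443 for kept and 0.274 for lost bases, so it is not particular to the Sox genes. The 10 kb on either side of the domains had ratios between 0.154 at Sox7 and 0.460 at Sox11. Sox9 had no base covered in all 4 libraries, and its lost bases had a ratio of 0.492. Distance from the start site was not compared between the kept and lost stretches.

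**Figure D4:**
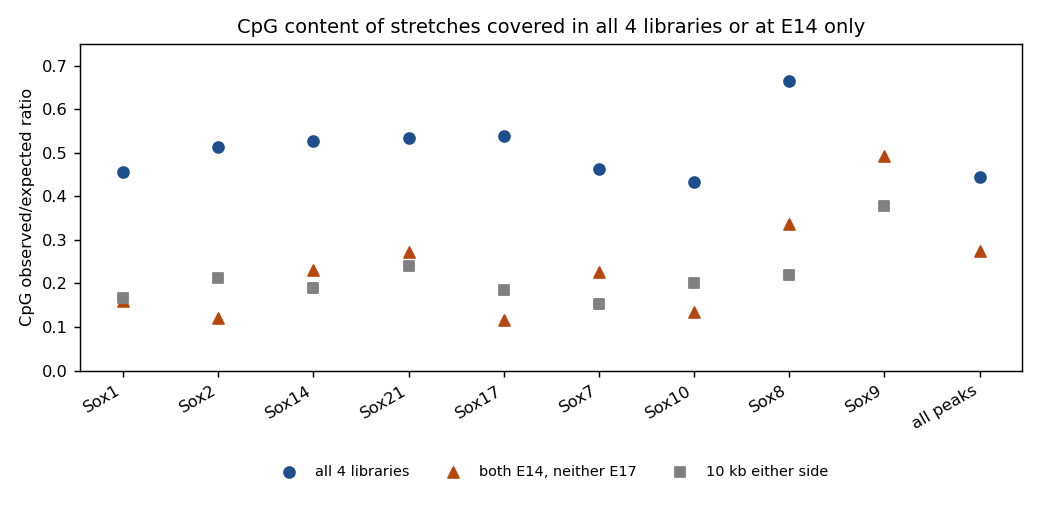
CpG observed/expected ratio of the bases covered in all 4 libraries (circles), of those covered in both E14 and neither E17 library (triangles) and of the 10 kb on either side of the domain (squares), for each Sox gene and, without flanks, for all peaks. Circles lie above triangles at each of the 8 genes that have both, and for all peaks (0.443 and 0.274).

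The 10 other Sox genes of the genome gave a comparison within the family. A peak was present in all 4 libraries at 5 of them (Sox3, Sox5, Sox6, Sox13 and Sox18) and in none at 4 (Sox4, Sox15, Sox30 and Sry). Sox12 had a peak of 828 bp at a percentile of 58.8 in E14 replicate 1 alone, which is within the spread between replicates. At Sox18, an endothelial and dermal papilla gene of the F subfamily, domain width was 8051 and 6468 bp at E14 and 4290 and 3279 bp at E17. At Sox3, a B1 gene of neural progenitors, it was 13762 and 13824 bp at E14 and 9802 and 6369 bp at E17. All 5 of these genes had smaller widths in both E17 libraries than in both E14 libraries, as did 66.8% of protein-coding genes. With their B and F relatives Sox3 and Sox18 included, each gene of these subfamilies was marked in every library. So were Sox5, Sox6 and Sox13, and the E genes Sox8 and Sox10 but not Sox9. Of the C genes, Sox4 had no peak and Sox11 and Sox12 had 1 each.

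The median width of the 10 Sox genes, taken on the log2 scale in each library, was 14583 and 12197 bp at E14 and 8702 and 8877 bp at E17. Among protein-coding genes outside the family, those nearest to this median over the 4 libraries by the mean absolute difference of log2(width + 1) included Chat and Slc18a3 (0.0520), Prox1 (0.0653) and Adgrb1 (0.0925). Chat, the enzyme that makes acetylcholine, and Slc18a3, the transporter that loads it into vesicles, share a locus and the same peaks, with widths of 13561, 12114, 9257 and 8851 bp. Prox1 is a transcription factor of lymphatic endothelium. Likeness here means width in 4 libraries and nothing more.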

How the data were processed

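H3K27me3 ChIP-seq was examined in 4 libraries, 2 per stage, from 1 peak list per library. The submitters' processing notes name mm10, Bowtie2 2.3.5.1, SAMtools 1.9, MACS2 2.2.7.1 and deepTools 3.5.1. The study's methods state alignment with bowtie2 and MACS2 in broad mode with a q-value of 0.01 as the threshold. Each library has its own list. They state that E18.5 WT samples were subsampled, and whether this covers these libraries is not clear. The control of the peak call is not given in the sources used here, and the input library was not analysed here. The labels name DMEM with serum, sonication and an Ion Torrent library kit, and the methods instead name AmnioMAX, enzymatic shearing with a ChIP kit, Kapa Hyper library preparation and an Illumina instrument. The fold enrichment that the authors deposited per peak is a ratio to the local background, used here only as a rank within its list. The deposited −log10 p-value was not used, and the deposited −log10 q-value served for stricter thresholds and to shorten lists. The lists give no counts, so depth and the precision of a single peak are unknown. A missing peak can lie just under the threshold.

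Positions are GRCm38. Genes came from GENCODE vM21 (55536, of which 22028 protein-coding), and promoters from RefSeq on GRCm38.p6. Scripts ran in Python 3.11.15 with scipy 1.17.1, pandas 2.3.3 and numpy 2.4.6, and counted peaks overlapping by at least 1 bp. They were tested on simulated data, where 100% of covered lengths and widths were recovered at 600 genes in 4 lists. Stages were compared by the exact two-sided permutation test per gene. No test was run over the Sox genes as a list. The genes named were all 10 members, the other Sox genes (values where presence differed between the stages), genes with a start inside the members' peaks, and the 5 non-Sox genes nearest to the median member by width, of which 1 is not reported here. The values for Sox3 and Sox18 were given after they were seen. The members, lists and tests were chosen with earlier results of these data known. The alternatives were windows of 1000 and 5000 bp, start sites of protein-coding transcripts, gene bodies, stricter q-values, a minimum width, lists of equal number or covered length, joined peaks, a replicate block, and leaving out each library. Counting all peaks within the outermost span of a domain was added after the data were seen.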

Additional observations from a re-analysis of the deposited data

How the results depend on the processing

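The count of Sox genes with a peak in every library was 8 and ranged from 7 to 9 over the alternatives. It was 7, without Sox8, with a −log10 q-value of at least 3 or 5, a minimum width of 1000 bp and both kinds of equal lists, and 9, with Sox9, without E17 replicate 2. For the other Sox genes the count of 5 became 2 with a −log10 q-value of at least 5 and 3 in lists of equal covered length. The count of Sox genes with a shorter covered length at E17 (4) became 1 with windows of 1000 bp, 2 in lists of equal covered length, 6 with windows of 5000 bp or without E17 replicate 1, and 5 with gene bodies or without E17 replicate 2. The median change of covered length (-4.52%) became -0.753% with windows of 1000 bp, -16.8% with windows of 5000 bp, -0.417% in lists of equal covered length, -1.80% without E17 replicate 1 and -7.24% without E17 replicate 2. Counting all peaks of the outermost span, an alternative added after seeing the data, gave a median change of width of -33.7%. With the peaks that touch the windows it was -28.8% and ranged from -40.9% without E17 replicate 1 to -23.3% without E14 replicate 1. The median change of percentile (-1.31 points) became -5.95 with a −log10 q-value of at least 5, -2.31 with peaks of at least 1000 bp and -0.837 without E14 replicate 1. It reversed to 0.197 in lists of equal number and 2.38 in lists of equal covered length, since shortening a list to its top peaks removes more weak peaks at E14.

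Of 379 values of single Sox genes under the alternatives, 19 reversed. In lists of equal number the percentile difference was 0.197 at Sox1, 5.93 at Sox7, 5.37 at Sox10 and 1.03 at Sox17. In lists of equal covered length it was 2.14 at Sox1, 2.38 at Sox2, 40.7 at Sox7, 52.7 at Sox10, 0.217 at Sox14, 8.34 at Sox17 and 0.395 at Sox21, and covered length and width at Sox8 differed by 232 bp. Leaving out 1 library gave covered length differences at Sox1 from -292.5 to 258.5 bp, and percentile differences from -0.634 to 0.109 at Sox1, from -3.91 to 0.453 at Sox7 and from -1.93 to 0.557 at Sox17.

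Same-numbered libraries did not deviate together in log2 width (r = -0.0496 over 5675 genes). With 2 libraries per stage this value cannot settle whether the numbers pair the samples, and the labels do not say. With a replicate block the median changes were -4.52% for covered length, -27.6% for width and -1.31 points for percentile. Depth cannot be read from the lists, and with 2 against 2 libraries the exact permutation test cannot pass the threshold.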
